A study of Mus musculus with 12 samples.

Results

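The SLC25 genes encode the mitochondrial carriers, a family of small proteins that sit mostly in the inner mitochondrial membrane and exchange metabolites, nucleotides, cofactors and ions between the cytosol and the matrix. The members were all genes of the deposited transcript-to-gene table whose symbol begins with Slc25a and a number, except Slc25a1 and Slc25a20, which gave 46 genes of 57180. Of these, 44 passed the count filter of at least 10 counts over all libraries, 35 had a mean of at least 1 CPM (a normalized counts-per-million value), and 2 were left out (Slc25a54, with 1 count in total, and the pseudogene Slc25a5-ps, with 0).

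RNA was sequenced from 12 libraries of one chosen E14 mouse embryonic stem cell (ESC) clone that carries a doxycycline-inducible dCas9 repressor at the Tigre locus, with guide RNAs brought in by PiggyBac under hygromycin selection. The control line (Neg) holds 4 scramble guides. The 3xKD line holds guides against Pcx, Me1 and Me2, that is pyruvate carboxylase and the cytosolic and mitochondrial malic enzymes. Each line was sequenced as naive ESCs (2iLIF medium) and as epiblast-like cells (EpiLCs) at day 2 of Activin A, Fgf2 and XAV939, with 3 libraries in each of 4 groups and both lines at low oxygen. Doxycycline, which switches the repressor on, is named in the study's methods and not in the sample labels. Sample titles gave the groups, since the cell-type field gives ESCs for every Neg library and EpiLCs for every 3xKD library.

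The libraries held 11221023 to 19652197 estimated counts. The targeted genes fell in both states, Pcx from 36.2 ± 0.532 to 16.4 ± 0.335 CPM in ESCs and from 51.03 ± 5.29 to 24.6 ± 1.005 CPM in EpiLCs (mean ± SD, n = 3), with Me1 and Me2 between −0.89 and −1.05 on the log2 scale. The state labels were checked against marker genes. The summed level of 7 naive genes was 4589 to 4745 CPM in Neg ESCs, 3636 to 3702 in 3xKD ESCs, 282 to 295 in Neg EpiLCs and 421 to 434 in 3xKD EpiLCs. For 7 formative genes it was 269 to 282, 301 to 309, 3071 to 3440 and 1763 to 1828 CPM in the same order. All 7 naive genes were called lower and all 7 formative genes higher in EpiLCs in both lines. Of the lists for other cells, primitive endoderm summed to 14.8 to 26.7 CPM (5 genes), trophoblast to 23.4 to 81.5 CPM (5 genes, Elf5 under 1 CPM in every library) and fibroblast to 3.76 to 8.62 CPM (5 genes, Col1a2, Col3a1 and Twist2 under 1 CPM). A list of 4 genes of 2-cell-like cells summed to 370 to 396, 414 to 420, 344 to 379 and 760 to 819 CPM in the order above. Every marker of these lists passed the count filter. The part of these differences in the results below was not tested. In bulk RNA, fewer cells of a type and less RNA per cell cannot be told apart.

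Background on the family helps to place the values. Carriers of phosphate (Slc25a3) and of ADP and ATP (Slc25a4, Slc25a5, Slc25a31) supply and drain the ATP synthase. Carriers of malate, oxoglutarate, aspartate and glutamate (Slc25a10, Slc25a11, Slc25a12, Slc25a13) move carbon and reducing equivalents across the inner membrane, and malate is the substrate of the malic enzymes repressed here. Other members carry amino acids, cofactors, nucleotides, glutathione or iron, are related to uncoupling proteins, or have no substrate assigned here.

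Levels were compared between genes only per length, as the share of the family's summed transcripts-per-million (TPM) values within each library. The phosphate carrier Slc25a3 held 21.0% of the family's TPM on average and the ADP/ATP carrier Slc25a5 held 20.2%. Next came the glutathione carrier Slc25a39 with 10.1%, the pyrimidine nucleotide carrier Slc25a36 with 8.41% and the ADP/ATP carrier Slc25a4 with 7.30%. These 5 genes together made up 65.3% to 69.6% of the family in every library. Slc25a39 held more than Slc25a36 in all 12 libraries. Slc25a36 held more than Slc25a4 in every ESC library and every 3xKD EpiLC library, and less in all 3 Neg EpiLC libraries. The oxoglutarate/malate carrier Slc25a11 followed with 3.91%, and Slc25a22, Slc25a13, Slc25a17, Slc25a30 and Slc25a51 with 2.76%, 2.75%, 2.61%, 2.16% and 2%, whose ranges overlapped.

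The order of both leading carriers was not the same in the groups. The share of Slc25a3 averaged 22.4% in Neg ESCs, 18.4% in 3xKD ESCs, 22.0% in Neg EpiLCs and 21.3% in 3xKD EpiLCs. For Slc25a5 the averages were 15.5%, 19.3%, 22.5% and 23.6%. Slc25a3 held more than Slc25a5 in every Neg ESC library, Slc25a5 held more in every 3xKD library of both states, and the order was mixed in Neg EpiLCs. The share of Slc25a36 averaged 10.1% in ESCs of both lines, 6.19% in Neg EpiLCs and 7.27% in 3xKD EpiLCs.

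**Figure D1:**
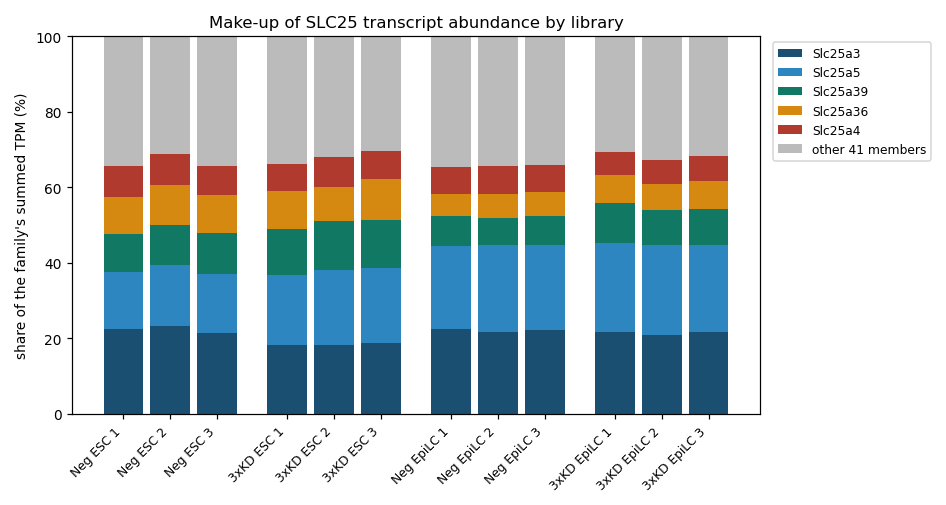
Share of the family's summed TPM (%, vertical axis) held by the 5 most abundant SLC25 members and by the other 41 in each of the 12 libraries. The 5 make up 65.3% to 69.6% in every library, and Slc25a36 is smaller in the EpiLC libraries.

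On the CPM scale used for the tests, Slc25a3 was at 293, 314 and 309.5 CPM in the Neg ESC libraries and 282, 277 and 279.7 in the 3xKD ESC libraries. Among EpiLC libraries its level was 264, 247 and 261 CPM in Neg and 252, 242 and 252 in 3xKD. Its values did not overlap between Neg and 3xKD ESCs, a difference of −0.13 (standard error 0.035, adjusted p = 0.0075) on the log2 scale that is under the fold limit set below.

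Genes were called between groups when the log2 fold change lay beyond 0.58 in either direction with a Benjamini-Hochberg adjusted p under 0.01, from edgeR's quasi-likelihood test fitted over 25446 genes. Between 3xKD and Neg ESCs, 2 SLC25 members were called higher in 3xKD, Slc25a24 and Slc25a37, and 4 lower, Slc25a10, Slc25a44, Slc25a38 and Slc25a31. The counts are 4.55% and 9.09% of the 44 tested members, against 8.5% of all genes called higher and 6.76% called lower. Without the fold limit 17 members passed, 10 higher and 7 lower, or 38.6% against 31.6% of all genes. Among genes with at least 1 CPM, 17.1% of members and 23.6% of all genes were called. Without the fold limit these shares were 48.6% and 51.3%. The median log2 fold change of the members was 0.06, and that of all genes 0.03.

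Between 3xKD and Neg EpiLCs, 3 members were called higher, among them Slc25a27 and Slc25a40, and 4 lower, Slc25a34, Slc25a38, Slc25a44 and Slc25a10. The background was 7.88% of all genes called higher, against 6.82% of members, and 5.35% called lower, against 9.09%. Among genes of at least 1 CPM, 20% of members and 20.8% of all genes were called. Again 17 members passed without the fold limit, 8 higher and 9 lower, or 38.6%, where the background was 29.9%. Of genes with at least 1 CPM, 48.6% of members and 49.1% of all genes passed in this way. The members' median was 0.03 and that of all genes 0.03. With offsets for the average transcript length, 2 members were called in ESCs and 4 in EpiLCs.

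**Figure D2:**
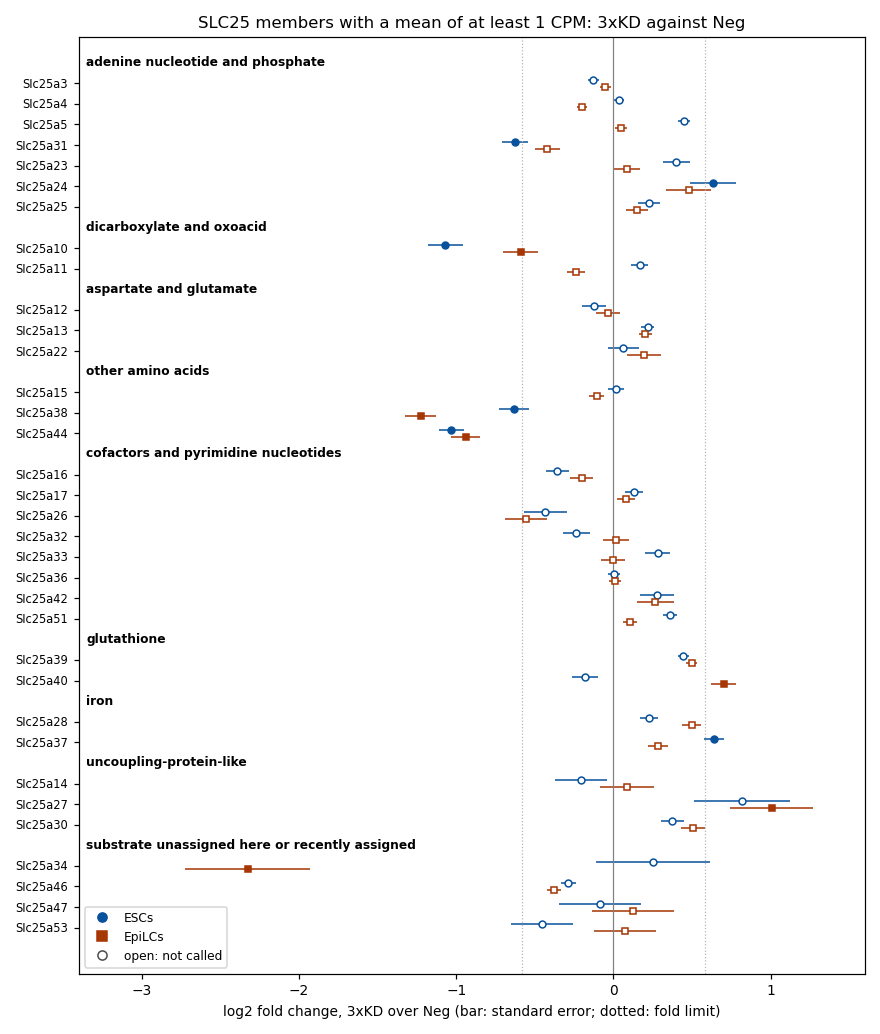
Log2 fold change of 3xKD over Neg (horizontal axis, bar: standard error of the fit) for 34 of the 35 SLC25 members with a mean of at least 1 CPM, ordered by substrate, in ESCs (circles) and EpiLCs (squares); filled symbols are called. Slc25a10, Slc25a38 and Slc25a44 are called lower in both states, and Slc25a34 in EpiLCs has the lowest value, −2.33.

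Of the 5 carriers of other amino acids, Slc25a44 and Slc25a38 were called lower in 3xKD in both states, where 6.76% and 5.35% of all genes were. Slc25a44 (ENSMUSG00000050144, GRCm39 chr3:88317802-88332564, minus strand) carries branched-chain amino acids into mitochondria. It was at 39.6, 41.4 and 41.8 CPM in Neg ESCs and 19.7, 21.9 and 18.5 CPM in 3xKD ESCs, and at 21.2, 17.5 and 18.4 CPM in Neg EpiLCs and 10.9, 9.34 and 9.55 CPM in 3xKD EpiLCs. Within each state all 3xKD libraries were lower than all Neg libraries, and the Neg EpiLC libraries overlapped those of 3xKD ESCs. The change was −1.03 (standard error 0.081, adjusted p = 2.8e-08) in ESCs and −0.94 (standard error 0.091, adjusted p = 3.3e-07) in EpiLCs on the log2 scale. These calls held under all 22 alternatives.

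Slc25a38 (ENSMUSG00000032519, GRCm39 chr9:119939387-119955157, plus strand) imports glycine for the first step of heme synthesis. Its level was 16.7, 19.8 and 20.4 CPM in Neg ESCs, 12.1, 12.3 and 12.5 in 3xKD ESCs, 22.2, 18.9 and 20.04 in Neg EpiLCs and 9.62, 7.67 and 8.804 in 3xKD EpiLCs. The Neg groups overlapped each other, and the 3xKD groups lay below them without overlap, lowest in EpiLCs. The gene fell by 0.63 on the log2 scale in ESCs (standard error 0.097, adjusted p = 4.9e-05) and by 1.23 in EpiLCs (standard error 0.10, adjusted p = 4.3e-08). In ESCs the call was lost with transcript-length offsets (−0.52) and without Neg ESC library 3 (−0.57). The ornithine carrier Slc25a15 did not pass in either state (0.02 and −0.11).

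The dicarboxylate carrier Slc25a10 (ENSMUSG00000025792, GRCm39 chr11:120382359-120391985, plus strand), which exchanges malate and succinate for phosphate, was also called lower in both states. It was at 13.7, 15.97 and 14.9 CPM in Neg ESCs and 7.495, 7.499 and 6.27 CPM in 3xKD ESCs (log2 fold change −1.07, standard error 0.11, adjusted p = 7.3e-07). The EpiLC libraries held 11.4, 11.8 and 11.2 CPM in Neg and 6.95, 8.95 and 6.99 in 3xKD (log2 fold change −0.59, standard error 0.11, adjusted p = 4.3e-04). The groups did not overlap in either state, but the EpiLC value is only just past the fold limit.

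Both Slc25a10 calls were lost with offsets for the average transcript length, which gave −0.47 in ESCs (adjusted p = 0.057) and −0.08 in EpiLCs (adjusted p = 0.80). In EpiLCs the call was also lost with upper-quartile factors, library size alone, the other filters, and without Neg library 2, 3xKD library 1 or 3xKD library 3, between −0.53 and −0.58. On coding transcripts only, an alternative chosen after seeing the data, the falls were called, −1.55 in ESCs (adjusted p = 4.1e-06) and −0.86 in EpiLCs (adjusted p = 7.4e-04). The transcript estimates moved with the line. The coding transcript Slc25a10-201 held 65.8%, 60.7% and 49.2% of the gene's TPM in Neg ESCs and 26.8%, 28.6% and 27.0% in 3xKD ESCs. In EpiLCs it held 70.3%, 52.0% and 53.8% in Neg and 39.6%, 40.6% and 20.2% in 3xKD. The rest lay on shorter transcripts with no coding sequence defined.

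The oxoglutarate/malate carrier Slc25a11, the other malate carrier of the group, was at 44.5, 49.9 and 46.3 CPM in Neg ESCs and 53.1, 53.7 and 51.2 CPM in 3xKD ESCs. Its EpiLC values were 46.1, 51.7 and 50.9 CPM in Neg and 43.8, 42.01 and 40.2 in 3xKD. The EpiLC groups did not overlap and the change of −0.24 (standard error 0.057, adjusted p = 0.0028) was under the fold limit. The log2 effect of 3xKD in EpiLCs minus that in ESCs came to −0.40 (standard error 0.080, adjusted p = 0.0018). That difference was lost with library size alone and with transcript-length offsets (adjusted p = 0.019). Slc25a21, the oxoadipate carrier, held 10 counts in all libraries together.

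**Figure D3:**
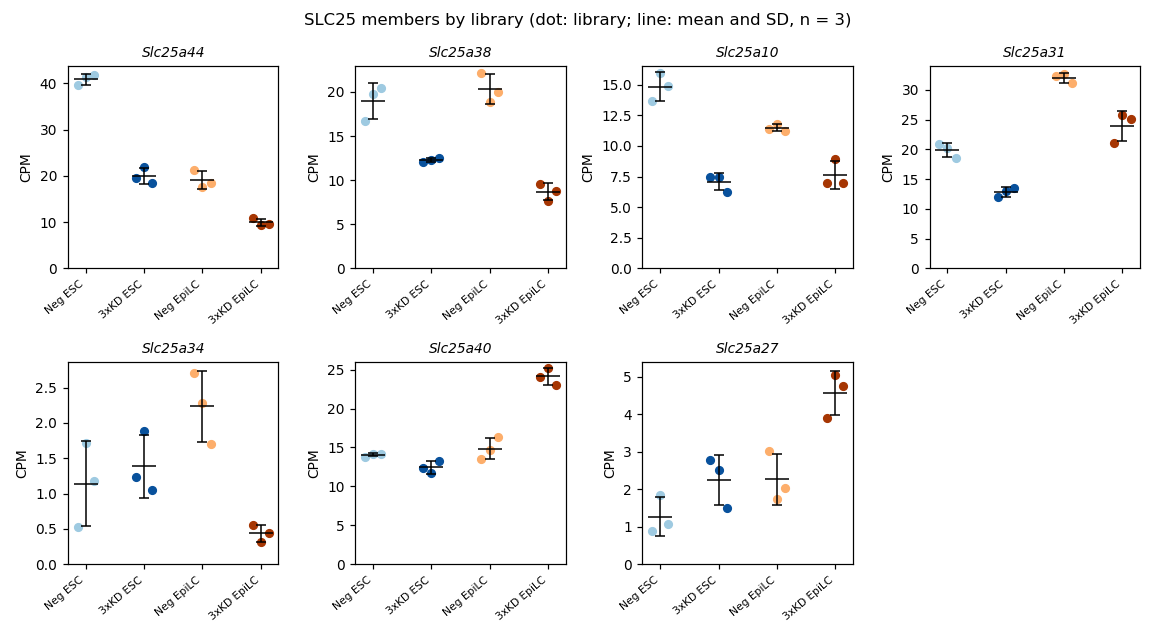
Normalized level (CPM, linear axis from 0) of 7 SLC25 members in each of the 12 libraries; dots are libraries and lines the mean and SD of 3. Slc25a44, Slc25a38 and Slc25a10 are lower in 3xKD in both states, and in EpiLCs Slc25a34 is lower and Slc25a40 higher in 3xKD than in Neg.

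Among the nucleotide and phosphate carriers, Slc25a31 (ENSMUSG00000069041, GRCm39 chr3:40663285-40680527, plus strand) is the ADP/ATP carrier known from germ cells. It was at 20.8, 20.2 and 18.5 CPM in Neg ESCs and 11.98, 12.9 and 13.6 CPM in 3xKD ESCs. EpiLC libraries were at 32.4, 32.7 and 31.1 CPM in Neg and 21.04, 25.8 and 25.1 CPM in 3xKD. All EpiLC libraries lay above the ESC libraries of both lines, and in each state 3xKD lay below Neg. It fell by 0.63 on the log2 scale in 3xKD ESCs (standard error 0.085, adjusted p = 1.3e-05), a call lost without 3xKD ESC library 1 (−0.55). In 3xKD EpiLCs the change of −0.42 (standard error 0.077, adjusted p = 3.1e-04) was under the fold limit.

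The promoter of Slc25a31 is shown because it was the one member called higher in EpiLCs in the Neg line and held matches to 2 of the 3 motifs searched. The sequences are from RefSeq (GRCm38.p6), 250 bases before to 50 after the start, and 34 of the 46 members were in that table. Capitals mark an E-box (CACGTG) and the NRF1 motif (GCGCATGC, here on the opposite strand). In Slc25a31 the matches stood at positions −93 and −110 from the start. Slc25a36, described below among the members that fell in EpiLCs, held 1 E-box at position −187. Slc25a38, called lower in 3xKD in both states, held none of the 3 motifs in this window and is given beside them.
Slc25a31, chr3:40708621-40708920, plus strand: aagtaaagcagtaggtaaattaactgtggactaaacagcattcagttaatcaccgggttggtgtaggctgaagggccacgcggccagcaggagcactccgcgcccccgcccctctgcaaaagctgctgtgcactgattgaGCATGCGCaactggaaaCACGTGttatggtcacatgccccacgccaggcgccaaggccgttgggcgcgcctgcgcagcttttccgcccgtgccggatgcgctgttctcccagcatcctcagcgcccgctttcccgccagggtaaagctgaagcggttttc
Slc25a36, chr9:97110992-97111291, minus strand: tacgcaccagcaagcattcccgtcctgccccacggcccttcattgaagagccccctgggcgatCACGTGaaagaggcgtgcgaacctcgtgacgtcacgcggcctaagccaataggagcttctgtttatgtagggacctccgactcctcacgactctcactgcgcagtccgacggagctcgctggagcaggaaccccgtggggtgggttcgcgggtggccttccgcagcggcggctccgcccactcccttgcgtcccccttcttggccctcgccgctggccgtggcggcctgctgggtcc
Slc25a38, chr9:120110132-120110431, plus strand: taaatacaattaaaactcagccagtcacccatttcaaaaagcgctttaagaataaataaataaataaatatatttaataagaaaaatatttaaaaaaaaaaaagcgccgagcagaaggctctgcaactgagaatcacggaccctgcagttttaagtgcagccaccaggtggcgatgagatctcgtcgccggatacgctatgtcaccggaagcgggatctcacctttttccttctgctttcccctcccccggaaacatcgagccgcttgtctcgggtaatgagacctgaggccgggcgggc

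Searched on both strands, CACGTG was in the promoter of 6 of the 34 members (17.6%: Slc25a13, Slc25a14, Slc25a15, Slc25a31, Slc25a33 and Slc25a36), against 8.09% of all genes in the table. GCGCATGC was in 2 (5.88%: Slc25a31 and Slc25a54), against 3.05%. The ATF4 composite element TGATGNAAT was in 0 of the 34, against 1.08%. The 6 members with an E-box did not move alike. Between Neg EpiLCs and Neg ESCs, Slc25a31 and Slc25a15 had positive changes (0.70 and 0.27) and Slc25a36 and Slc25a13 negative ones (−0.84 and −0.62). A motif match is a description of these letters and not evidence of binding.

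Slc25a5, the ADP/ATP carrier of proliferating cells, and Slc25a4, that of heart and muscle, each had a 3xKD effect that was not the same in ESCs and EpiLCs. Slc25a5 was at 190.0, 207 and 209 CPM in Neg ESCs and 276, 271 and 281 CPM in 3xKD ESCs. In EpiLCs it was at 257, 257 and 255 CPM in Neg and 272, 266 and 256 CPM in 3xKD, where the groups overlapped. The ESC change of 0.45 (standard error 0.038, adjusted p = 5.8e-08) was under the fold limit, and the log2 effect in EpiLCs minus that in ESCs was −0.40 (standard error 0.053, adjusted p = 5.1e-05), a difference that held under all 21 alternatives.

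Slc25a4 was at 174, 176 and 174 CPM in Neg ESCs and 178, 182 and 178 CPM in 3xKD ESCs. Among EpiLC libraries its level was 141, 136 and 135 CPM in Neg and 118, 120.2 and 121 CPM in 3xKD. The effect in EpiLCs minus that in ESCs was −0.24 (standard error 0.043, adjusted p = 9.7e-04), a call lost with library size alone and with transcript-length offsets (adjusted p = 0.022 in each). Per length, the ratio of Slc25a5 to Slc25a4 was 1.82 to 2 in Neg ESCs, 2.49 to 2.65 in 3xKD ESCs, 3.07 to 3.1 in Neg EpiLCs and 3.51 to 3.81 in 3xKD EpiLCs. None of these 4 ranges overlapped.

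The ATP-Mg/phosphate carrier Slc25a24 was at 3.99, 4.47 and 3.21 CPM in Neg ESCs and 5.84, 6.22 and 5.88 CPM in 3xKD ESCs (log2 fold change 0.63, standard error 0.15, adjusted p = 0.0021). The EpiLC libraries held 4.003, 4.63 and 4.804 CPM in Neg and 5.89, 5.82 and 6.99 in 3xKD, which did not pass (adjusted p = 0.013). The ESC call was lost with transcript-length offsets (adjusted p = 0.025) and without Neg ESC library 3 (0.49, adjusted p = 0.018). Its relative Slc25a23 had 0.40 (standard error 0.087, adjusted p = 0.0013) in ESCs, under the fold limit.

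Slc25a39 and Slc25a40 import glutathione into mitochondria, and both passed the adjusted p in 3xKD EpiLCs, Slc25a40 also the fold limit. Slc25a39 (ENSMUSG00000018677, GRCm39 chr11:102292585-102299602, minus strand) was at 145, 152 and 153 CPM in Neg ESCs and 207, 208 and 197 CPM in 3xKD ESCs. Its EpiLC values were 87.2, 85.7 and 86.4 CPM in Neg and 125, 122 and 119 CPM in 3xKD. The 3xKD libraries lay above Neg in both states, by 0.44 (standard error 0.034, adjusted p = 2.1e-08) and 0.50 (standard error 0.036, adjusted p = 1.0e-08), both under the fold limit.

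Slc25a40 (ENSMUSG00000054099, GRCm39 chr5:8472804-8504839, plus strand) was at 13.8, 14.2 and 14.2 CPM in Neg ESCs and 12.3, 11.7 and 13.3 CPM in 3xKD ESCs. EpiLC libraries were at 13.6, 14.7 and 16.3 CPM in Neg and 24.1, 25.3 and 23.04 CPM in 3xKD. Only the 3xKD EpiLC libraries stood above the rest (log2 fold change 0.70, standard error 0.078, adjusted p = 1.7e-06). The effect in EpiLCs exceeded that in ESCs by 0.88 (standard error 0.11, adjusted p = 4.1e-05) on the log2 scale. Both calls were lost with transcript-length offsets, at 0.85 (adjusted p = 0.021) and 0.78 (adjusted p = 0.24), and the EpiLC rise measured 0.56 on coding transcripts only, under the fold limit. The ratio of Slc25a39 to Slc25a40 per length was 14.7 to 26.1 in Neg ESCs, 17.3 to 32.9 in 3xKD ESCs, 11.3 to 14.3 in Neg EpiLCs and 7.34 to 9.87 in 3xKD EpiLCs.

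The iron carriers (mitoferrins) Slc25a28 and Slc25a37 had higher summed counts in 3xKD in both states, while their coding transcripts were lower in 3xKD ESCs. Summed over all transcripts, Slc25a37 (ENSMUSG00000034248, GRCm39 chr14:69479297-69522561, minus strand) was at 24.7, 24.1 and 24.8 CPM in Neg ESCs and 39.6, 36.7 and 38.3 CPM in 3xKD ESCs (log2 fold change 0.64, standard error 0.063, adjusted p = 3.8e-07). In EpiLCs it was at 22.9, 25.8 and 23.3 CPM in Neg and 27.9, 31.3 and 28.4 in 3xKD (log2 fold change 0.28, standard error 0.064, adjusted p = 0.0018). The groups did not overlap in either state.

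The coding transcript Slc25a37-201 held 46.3, 58.3 and 96.4 estimated counts in the Neg ESC libraries and 7.3, 3.4 and 0 in the 3xKD ESC libraries. In EpiLCs it held 46.4, 80.7 and 66.8 counts in Neg and 0 in each of the 3 3xKD libraries. The retained-intron transcript Slc25a37-203 went the other way, from 14.4, 13.9 and 15.6 to 29.2, 28.7 and 30 CPM in ESCs and from 14, 13.9 and 12.9 to 21.3, 23.5 and 21.7 CPM in EpiLCs. The transcript Slc25a37-204, annotated as a target of nonsense-mediated decay, was at 4.22 to 6.53 CPM in Neg and 6.67 to 9.95 CPM in 3xKD libraries.

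With edgeR's test run on counts of coding transcripts only, an alternative added after the transcript values had been seen, the gene turned to −4.33 in ESCs (standard error 0.51, adjusted p = 1.8e-05). Against a floor of 3 counts per library, the Salmon estimate of Slc25a37-201 was at least 22.1-fold lower in 3xKD than in Neg EpiLCs. That floor covers counting error and not the division of reads between transcripts. Slc25a37-201 shares all but 3 of its 4174 exonic bases with the gene's other transcripts, so its estimate depends on how Salmon divided reads between them. The annotation also places 2 other genes on the same strand over Slc25a37, and other genes overlap Slc25a3, Slc25a39 and Slc25a51 on their strand.

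Slc25a28 was at 26.5, 27.1 and 26.1 CPM in Neg ESCs and 30.8, 30.1 and 32.4 CPM in 3xKD ESCs, summed over transcripts. Among EpiLC libraries its level was 22.7, 21.6 and 22.2 CPM in Neg and 31.5, 32.9 and 29.4 CPM in 3xKD. The changes of 0.23 (standard error 0.058, adjusted p = 0.0042) and 0.50 (standard error 0.058, adjusted p = 2.9e-06) passed the adjusted p and not the fold limit. Its coding transcript Slc25a28-201 was at 13.3, 14.2 and 13.9 CPM in Neg ESCs and 7.41, 7.79 and 7.69 CPM in 3xKD ESCs, and the retained-intron transcript Slc25a28-202 at 11, 8.6 and 8.48 against 17.9, 16.4 and 19.6 CPM. In EpiLCs Slc25a28-201 was at 13.1, 9.67 and 11.6 CPM in Neg and 6.34, 8.83 and 11.4 in 3xKD, which overlapped. In the annotation used here, whose model of Slc25a28-201 is longer than the deposited one, 0 of its exonic bases are its own, so this level too rests on how reads were divided. On coding transcripts only the gene had −0.80 in ESCs (standard error 0.17, adjusted p = 0.0014) and −0.34 in EpiLCs (adjusted p = 0.13).

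Retained-intron transcripts also took more of all counts in the 3xKD libraries. They held 3.41% to 3.71% of the counts of all genes in Neg ESCs and 4.13% to 4.14% in 3xKD ESCs, and 3.58% to 3.63% and 4.1% to 4.2% in Neg and 3xKD EpiLCs. Over the SLC25 members the shares were 6.92% to 7.04%, 7.6% to 8.85%, 7.14% to 7.27% and 8.44% to 9.68% in the same order. The part of this library-wide difference in the iron carriers' values was not tested.

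**Figure D4:**
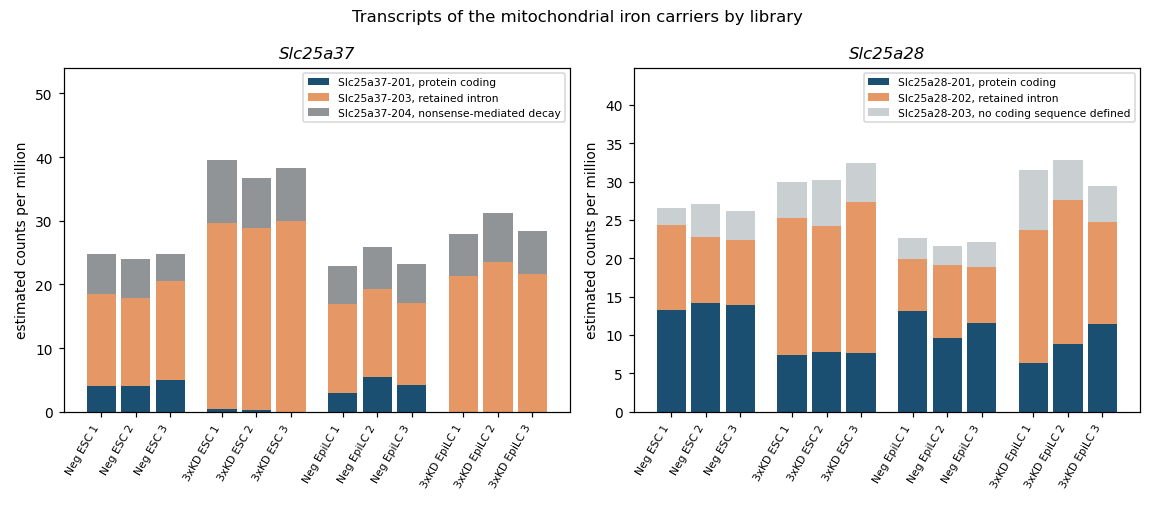
Level in CPM (vertical axis) of the transcripts of Slc25a37 and Slc25a28 that held at least 10% of their gene's TPM in some library, stacked by library. The coding transcript Slc25a37-201 is at 0 in the 3 3xKD EpiLC libraries and in 3xKD ESC library 3, while the retained-intron transcripts of both genes are taller in 3xKD.

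Of the 9 carriers of cofactors and pyrimidine nucleotides, 3 passed the adjusted p in 3xKD ESCs without reaching the fold limit, Slc25a51 and Slc25a33 higher and Slc25a16 lower. That is 33.3%, near the 31.6% of all genes and under the 51.3% of genes with at least 1 CPM. The NAD carrier Slc25a51 was at 52.4, 52.99 and 49.96 CPM in Neg ESCs and 69.5, 64.5 and 65.1 CPM in 3xKD ESCs. The EpiLC libraries held 46.9, 47.99 and 48.4 CPM in Neg and 50.7, 52.05 and 51.3 CPM in 3xKD. The ESC change was 0.36 (standard error 0.043, adjusted p = 3.9e-06), and the effect in EpiLCs minus that in ESCs was −0.26 (standard error 0.062, adjusted p = 0.0086), a difference lost under 16 of 21 alternatives. The pyrimidine nucleotide carrier Slc25a33 was at 13.4, 15.6 and 13.8 CPM in Neg ESCs and 16.8, 18.6 and 16.6 CPM in 3xKD ESCs (log2 fold change 0.28, standard error 0.080, adjusted p = 0.0094). It was at 18.8, 17.1 and 17.1 CPM in Neg EpiLCs and 17.1, 17.8 and 17.9 CPM in 3xKD EpiLCs, where the groups overlapped. The S-adenosylmethionine carrier Slc25a26 had −0.56 (standard error 0.13, adjusted p = 0.0029) in EpiLCs, just inside the fold limit.

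Among members related to uncoupling proteins, Slc25a27 was low, at 0.886, 1.86 and 1.07 CPM in Neg ESCs and 2.77, 2.5 and 1.503 CPM in 3xKD ESCs. Its EpiLC values were 3.02, 1.75 and 2.02 CPM in Neg and 3.91, 5.05 and 4.75 CPM in 3xKD (log2 fold change 1.006, standard error 0.26, adjusted p = 0.0058). The EpiLC call was lost without any one of Neg library 2, Neg library 3, 3xKD library 2 or 3xKD library 3 (adjusted p between 0.019 and 0.031). Slc25a30 passed the adjusted p and not the fold limit, with 0.37 (standard error 0.072, adjusted p = 4.2e-04) in ESCs and 0.50 (standard error 0.076, adjusted p = 4.7e-05) in EpiLCs. Its level was 38.3, 45.1 and 43.4 CPM in Neg ESCs and 56.3, 51.8 and 56.8 in 3xKD ESCs, and 26.7, 25.3 and 23.1 and 37.5, 36.8 and 32.2 CPM in Neg and 3xKD EpiLCs.

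Of the members with no substrate assigned here, Slc25a34 (ENSMUSG00000040740, GRCm39 chr4:141346130-141351151, minus strand) was called. It held 247 counts in all libraries together, at 0.532, 1.72 and 1.17 CPM in Neg ESCs and 1.23, 1.89 and 1.04 CPM in 3xKD ESCs, which overlapped. EpiLC libraries were at 2.71, 2.28 and 1.71 CPM in Neg and 0.558, 0.3197 and 0.437 CPM in 3xKD (log2 fold change −2.33, standard error 0.40, adjusted p = 1.5e-04). On the log2 scale the effect in EpiLCs minus that in ESCs was −2.58 (standard error 0.54, adjusted p = 0.0029). That difference was lost with transcript-length offsets (−2.61, adjusted p = 0.019), without 3xKD ESC library 2 (−2.29, adjusted p = 0.012) and without 3xKD EpiLC library 2 (−2.40, adjusted p = 0.011). The EpiLC fall itself held under all 22 alternatives. Slc25a46, a member of the outer membrane, had −0.29 (standard error 0.047, adjusted p = 1.1e-04) in ESCs and −0.38 (standard error 0.046, adjusted p = 4.2e-06) in EpiLCs, within the fold limit.

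Slc25a12 and Slc25a13 are the aspartate/glutamate carriers of the malate-aspartate shuttle. Slc25a13 was at 93.96, 98.1 and 101 CPM in Neg ESCs and 114, 113 and 114 CPM in 3xKD ESCs. In EpiLCs it was at 66.3, 60.9 and 63.9 CPM in Neg and 74.7, 75.4 and 70.1 CPM in 3xKD, changes of 0.22 (standard error 0.042, adjusted p = 3.9e-04) and 0.20 (standard error 0.043, adjusted p = 0.0011). The paralog Slc25a12 was at 17.6, 17.8 and 16.3 CPM in Neg ESCs and 15.4, 15.2 and 16.8 in 3xKD ESCs, and at 14.97, 13.4 and 14.3 and 13.3, 13.8 and 14.6 CPM in Neg and 3xKD EpiLCs. Slc25a12 overlapped between Neg and 3xKD and did not pass (−0.12 and −0.04). Slc25a13 exceeded Slc25a12 per length in all libraries except where the ratio was 1 in a Neg EpiLC library, with ranges of 1.84 to 4.05, 3.1 to 6.34, 1 to 2.65 and 2.9 to 4.1 in Neg ESCs, 3xKD ESCs, Neg EpiLCs and 3xKD EpiLCs. Without length scaling, the ratio of their CPM varied less among the Neg EpiLC libraries, from 4.43 to 4.56. The value of 1 thus rests on the length-scaled estimates of a single library.

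More members were called between ESCs and EpiLCs than between 3xKD and Neg. In the Neg line 1 member was called higher in EpiLCs, Slc25a31, and 9 lower. That is 2.27% of the tested members against 9.78% of all genes called higher, and 20.5% against 11% called lower. Among genes of at least 1 CPM, 20% of members and 16.7% of all genes were called lower. At that level 2.86% and 13.9% were called higher, and 22.9% and 30.7% in either direction. Without the fold limit 21 passed, 6 higher and 15 lower, or 47.7%, where the background was 35.7%. Of genes with at least 1 CPM, 54.3% of members and 55.9% of all genes passed in this way. The members' median was −0.15 and that of all genes 0.01. In the 3xKD line 4 were called higher, Slc25a27, Slc25a40, Slc25a31 and Slc25a32, against 9.42% of all genes, and 9 lower, against 9.32%. Among genes of at least 1 CPM, 22.9% of members and 14.3% of all genes were called lower. At that level 11.4% and 13.6% were called higher, and 34.3% and 27.9% in either direction. Again 21 passed without the fold limit, or 47.7% against 33.8%, and 57.1% against 53.4% among genes of at least 1 CPM. The median was −0.20 against 0.01 over all genes. The calls of Slc25a27, Slc25a34 (−1.65) and Slc25a40 were lost with transcript-length offsets. That of Slc25a27 was also lost without 3xKD ESC library 2 or 3 and without 3xKD EpiLC library 2 or 3. For Slc25a34 it was also lost without 3xKD ESC library 2 and without 3xKD EpiLC library 2 or 3. Slc25a30 (−0.63) lost its call with upper-quartile factors, on coding transcripts only (−0.56) and without 3xKD EpiLC library 3 (−0.56).

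Among the 5 largest falls in the Neg line, over members with at least 1 CPM, were those of Slc25a44 (−1.1), Slc25a36, Slc25a39 and Slc25a30 (−0.76). Slc25a36 (ENSMUSG00000032449, GRCm39 chr9:96950238-96993267, minus strand), which imports pyrimidine nucleotides, was at 404, 403 and 410.5 CPM in Neg ESCs and 217, 226 and 236 CPM in Neg EpiLCs (log2 fold change −0.84, standard error 0.038, adjusted p = 1.1e-11). In the 3xKD line it was at 418, 393 and 409 CPM in ESCs and 238, 221 and 225 CPM in EpiLCs. All ESC libraries lay above all EpiLC libraries, and 3xKD and Neg overlapped in both states. Slc25a39 fell by 0.79 in the Neg line (adjusted p = 9.0e-12) and by 0.74 in 3xKD. All of these calls on Slc25a36, Slc25a39 and Slc25a44 held under all 22 alternatives.

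Of the aspartate and glutamate carriers, Slc25a13 and Slc25a22 were called lower in EpiLCs in both lines, with −0.62 and −0.71 in Neg and −0.63 and −0.58 in 3xKD. The 3xKD value of Slc25a22 is only just past the fold limit. Calls on these genes were not among the single results followed under the alternatives. Low members also moved. Slc25a35 was at 1.24, 1.101 and 1.33 CPM in Neg ESCs and 0.369, 0.4698 and 0.316 CPM in Neg EpiLCs, and Slc25a48 at 0.621, 0.964 and 1.17 and 0.431, 0.269 and 0.316 CPM. Both were called lower. The folate carrier Slc25a32 rose in the 3xKD line by 0.77 (standard error 0.084, adjusted p = 9.7e-07), and in the Neg line had 0.52 (standard error 0.083, adjusted p = 6.6e-05), under the fold limit. Slc25a4 was called lower in 3xKD EpiLCs with −0.58 (standard error 0.030, adjusted p = 9.2e-11), a call just past the fold limit that was lost under 12 of 22 alternatives, at −0.51 to −0.57.

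**Figure D5:**
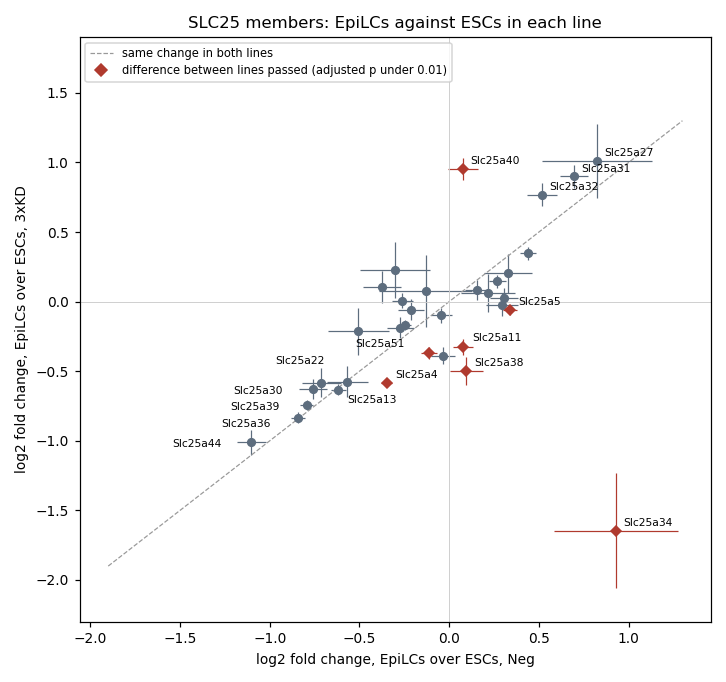
Log2 fold change of EpiLCs over ESCs in Neg (horizontal axis) and in 3xKD (vertical axis) for 34 of the 35 SLC25 members with a mean of at least 1 CPM; bars are standard errors and the dashed line marks equal change. Most members lie near that line, and the 7 whose difference between lines passed (diamonds) include Slc25a40 above it and Slc25a34 far below.

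The difference of the 3xKD effect between states was tested by itself, at an adjusted p under 0.01 with no fold limit. It was positive for 1 member, Slc25a40, where 4.76% of all genes passed in that direction, and negative for 6, Slc25a34, Slc25a38, Slc25a11, Slc25a5, Slc25a51 and Slc25a4, where 5.27% passed. Among genes of at least 1 CPM, 20% of members and 16.8% of all genes passed in either direction. That of Slc25a38 (difference −0.59, adjusted p = 0.0067) was lost under 12 of 21 alternatives. The naive and formative marker sums of 3xKD EpiLCs given above lay between those of Neg EpiLCs and ESCs. Their part in these differences was not tested.

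The 9 members that passed the filter with a mean under 1 CPM (Slc25a2, Slc25a18, Slc25a21, Slc25a29, Slc25a35, Slc25a41, Slc25a43, Slc25a45 and Slc25a48) had means between 0.0495 and 0.949 CPM. Slc25a35 and Slc25a48 were called between states as given above, and the calls between 3xKD and Neg were of members above 1 CPM. Of the members with at least 1 CPM that were not called, log2 fold changes lay between −0.46 (Slc25a53) and 0.82 (Slc25a27) in ESCs and between −0.56 (Slc25a26) and 0.50 (Slc25a30) in EpiLCs.

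A mixed list of 28 genes, called partners here, was set apart. It holds family members outside the rule, other mitochondrial transport genes, genes that insert carriers and enzymes of the malate-aspartate shuttle. In 3xKD ESCs 3 were called higher (Slc25a1, Got1 and Sfxn3) and 3 lower (Sfxn2, Timm10 and Timm29), and in 3xKD EpiLCs 3 were called higher (Slc25a1, Got1 and Sfxn3), with 18 and 12 passing the adjusted p. These are 64.3% and 42.9% of the partners, against 31.6% and 29.9% of all genes. All partners but Ucp1, Ucp3 and Sfxn4 had a mean of at least 1 CPM. Of all genes at that level, 51.3% and 49.1% passed. With the fold limit, 10.7% of partners were called higher and 10.7% lower in ESCs, against 8.5% and 6.76% of all genes. In EpiLCs 10.7% were called higher and 0 lower, against 7.88% and 5.35%. In either direction 21.4% of partners were called in ESCs and 10.7% in EpiLCs. Among all genes of at least 1 CPM these shares were 23.6% and 20.8%. Got1, the cytosolic aspartate aminotransferase of the malate-aspartate shuttle, rose from 83.5 ± 3.93 to 166 ± 7.57 CPM in ESCs (0.99 on the log2 scale) and from 71.3 ± 2.16 to 108 ± 2.47 CPM in EpiLCs (0.60). The citrate carrier Slc25a1, a family member outside the rule, rose from 140.4 ± 9.07 to 241 ± 6.77 CPM in ESCs (0.78 on the log2 scale) and from 75.7 ± 2.26 to 164 ± 2.35 CPM in EpiLCs (1.11). It lies on chromosome 16, whose 454 genes of at least 1 CPM had a median of 0.30 in 3xKD in both states. Chromosome Y, with 13 such genes, had a median of −2.59 in 3xKD in both states. No SLC25 gene of the rule lies on either chromosome. Each guide set was in its own line, so effects of the guides and other differences between the lines cannot be told apart.

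Of the genes that insert carriers into the inner membrane (the TIM22 path, 7 listed), 2 were called lower in 3xKD ESCs, the chaperone Timm10 (11.7 ± 0.866 to 5.77 ± 0.574 CPM) and Timm29 (56.7 ± 2.19 to 37.1 ± 1.38 CPM). That is 28.6% of the 7, against 6.76% of all genes. In EpiLCs their changes of −0.27 and −0.54 were not called. The sideroflexins are another family of mitochondrial carriers, of which Sfxn2 was at 18.4, 20.4 and 19.5 CPM in Neg ESCs and 9.46, 10.9 and 9.67 in 3xKD ESCs (log2 fold change −0.96, standard error 0.099, adjusted p = 6.1e-07). Sfxn3 was at 9.93, 12.4 and 11.9 and 18.98, 19.3 and 17.9 CPM (log2 fold change 0.71, standard error 0.14, adjusted p = 7.0e-04). Between states in the Neg line 7 partners were called lower in EpiLCs and 1 higher, Sfxn5 (0.72). The lower share was 25%, against 11% of all genes and 16.7% of those with at least 1 CPM. The higher share was 3.57%, against 9.78% and 13.9%. The genes called lower include the outer membrane channel Vdac1 (−0.65), the pyruvate carrier subunit Mpc1 (−1.07) and the carnitine carrier Slc25a20 (−1.38). In the 3xKD line 7 were called lower, among them the cytosolic malate dehydrogenase Mdh1 (−0.61) and the pyruvate carrier subunit Mpc2 (−0.61), and 0 higher. The lower share was 25%, against 9.32% of all genes and 14.3% of those with at least 1 CPM. The difference of the 3xKD effect between states passed for 8 partners, 5 positive and 3 negative. That is 28.6%, against 10% of all genes and 16.8% of those with at least 1 CPM. Among the 8 were the mitochondrial malate dehydrogenase Mdh2 (−0.24), Mpc1 (−0.61) and Agk, the acylglycerol kinase of the TIM22 complex (0.48).

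The guides of the 3xKD line were compared with the sequence around the members' starts. Within 1000 bp of 571 annotated start sites of the 46 members, 0 sites matched any of the guides with at most 4 mismatches beside an NGG motif, and the closest had 5 mismatches for the Pcx and Me2 guides and 6 for the Me1 guide.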

How the data were processed

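Bulk RNA-seq was analysed for 12 libraries in 4 groups of 3, Neg and 3xKD as ESCs and as EpiLCs day 2. According to the study's methods and the submitters' processing notes, ribosomal RNA was depleted (the molecule label names polyadenylated RNA), and directional single-end reads were trimmed (Trim Galore 0.6.7), mapped to GRCm39 with Ensembl annotation (STAR 2.7.9a) and quantified (Salmon 1.10.1). Each deposited table holds, for every transcript of a library, an estimated count with no normalization by the authors. It also holds a TPM value, scaled by the authors' software for transcript length and depth. Their own gene-level test was DESeq2 after tximport.

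Estimated counts were added up over the transcripts of a gene and rounded. Genes with 10 or more counts over all libraries were scaled by TMM and fitted with edgeR 4.0.16 (quasi-likelihood) in R 4.3.3. All 12 libraries entered 1 model of 4 groups, so that 1 estimate of the spread was shared. A call needed a log2 fold change beyond 0.58 and a Benjamini-Hochberg adjusted p under 0.01, the latter alone for the difference between states. Standard errors were obtained from the F statistic. CPM are TMM-normalized, and TPM served for shares and ratios between genes. No 2 replicates agreed within sampling noise (their chi-square was 2.84 to 16.5 times its degrees of freedom). The study's methods describe experiments in general as biological triplicates. The labels do not say that these libraries came from separate cultures, so p-values measure the spread between them, which may be technical. The fit was tested on simulated data.

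The members, the gene lists, the rule for named genes and the tests were chosen with earlier results of these data known. Values in every library are given for members of at least 1 CPM that were called between 3xKD and Neg or in the difference between states, for the 5 largest calls per direction between Neg states, for the 3 highest by TPM and for 5 pairs of paralogs. The values of 1 member that this rule covers are not reported here. Partner genes called in any comparison are named. The transcripts of Slc25a37, just under the level set for describing transcripts, were chosen after their values were seen. Gene positions and transcript types come from GENCODE vM39 (GRCm39), and promoters from RefSeq. Alternatives were DESeq2 1.42.0, other normalization factors (RLE, upper quartile, plain library size), other filters (filterByExpr or none), offsets for transcript length, a replicate block, fits of the compared groups alone, no fold limit and leaving out each library. Counting coding transcripts only was chosen after seeing the data. Members that overlap other genes carry uncertain values. The floor of 3 counts covers counting error only.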

Additional observations from a re-analysis of the deposited data

Results flagged for a closer look

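The effect of 3xKD differed between ESCs and EpiLCs for 7 SLC25 members in the test of that difference (edgeR, 3 libraries in each of 4 groups). This is 15.9% of the members tested, against 10% of all genes, and among genes of at least 1 CPM 20% against 16.8%. Given as the log2 effect in EpiLCs minus that in ESCs, the glutathione carrier Slc25a40 stood at 0.878 (adjusted p = 4.1e-05), the one member with a positive difference. Slc25a34, with no substrate assigned here, had −2.58 (adjusted p = 0.0029), on 247 counts in all libraries together. The difference was −0.595 for the glycine carrier Slc25a38 (adjusted p = 0.0067), whose effect was negative in both states, and −0.404 for the oxoglutarate carrier Slc25a11 (adjusted p = 0.0018), whose effect was 0.17 in ESCs and −0.24 in EpiLCs. The ADP/ATP carriers Slc25a5 and Slc25a4 had −0.4 (adjusted p = 5.1e-05) and −0.235 (adjusted p = 9.7e-04), and the NAD carrier Slc25a51 had −0.256 (adjusted p = 0.0086). Of these 7, the difference of Slc25a5 held under all 21 alternatives.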

How the results depend on the processing

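Transcript-length offsets left 2 members called against 6 between 3xKD and Neg in ESCs, 4 against 7 in EpiLCs, 5 against 10 between states in Neg, 7 against 13 between states in 3xKD, and 1 against 7 in the difference between states. Of all genes, these offsets called 11%, 9.25%, 16.7%, 14.4% and 2.87% in the same order. Without them the shares of all genes were 15.3%, 13.2%, 20.8%, 18.7% and 10%. With no fold limit 17, 17, 21 and 21 members passed in the first 4 comparisons. Of all genes 31.6%, 29.9%, 35.7% and 33.8% did. Library size alone left 3 in the fifth, where 9.22% of all genes passed. With the replicate block the counts were 6, 7, 9, 13 and 5, beside 14.9%, 12.9%, 20.3%, 18.3% and 9.12% of all genes. Leaving out 1 library gave 4 to 7, 5 to 7, 8 to 12, 9 to 13 and 4 to 7 calls in the same order, the lowest count of the fifth without 3xKD ESC library 2. These fits called 13.7% to 15.5%, 11.7% to 13.4%, 19.5% to 21.0%, 17.6% to 19.0% and 8.33% to 10.3% of all genes. Of 35 results on single members, 14 kept their call under all alternatives tried, 18 lost it with transcript-length offsets (5 of them only there) and 16 under another alternative. Slc25a37 in ESCs reversed to −4.33 on coding transcripts only, an alternative chosen after seeing the data. Beyond the construction of each alternative, the cause was not tested.

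Replicate numbers did not pair the libraries. Deviations from the group means correlated at −0.158 to 0.123 across genes for 18 pairs of libraries with the same number and at −0.158 to 0.195 for 36 pairs with different numbers. Depth limits the precision of members under 1 CPM.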

Other observations

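The length-scaled share of the glutamate carrier Slc25a22 varied more within a group than its counts did. Its counts were 14.7, 17.2 and 13.8 CPM in Neg ESCs and 16.3, 15 and 16.3 CPM in 3xKD ESCs, and its EpiLC values were 9.05, 10.47 and 8.34 CPM in Neg and 10.6, 11.4 and 9.87 CPM in 3xKD. Its share of the family TPM was 4.93%, 3.79% and 0.275% in the 3 Neg EpiLC libraries.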
